A study of Mus musculus with 2 samples.

Results

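The endothelin and angiotensin systems were examined in open chromatin of mouse hepatic stellate cells through 10 genes chosen by their place in the pathways: the endothelin ligands Edn1, Edn2 and Edn3, the endothelin receptors Ednra and Ednrb, the endothelin-converting enzyme Ece1, the angiotensin receptors Agtr1a, Agtr1b and Agtr2, and the angiotensin-converting enzyme Ace. They are 10 of 21887 protein-coding genes. ATAC-seq, in which Tn5 transposase cuts and tags accessible DNA, was run on 2 samples of 1 group, replicates A and B. By the labels, the mice were C57BL6/JBomTac, healthy and fed chow, and carried the allele Gt(ROSA)26Sortm1(mCherry-Rpl10a-Flop)Kra together with the Lrat-driven Cre transgene Tg(Lrat-cre)1Rshw (B6.Cg). Liver nuclei were sorted on mCherry-RPL10A, so the sort was aimed at cells in which Lrat-cre had acted. The purity of the sort was not tested. No age, sex or number of animals is given, nothing states that A and B are separate animals, and there is no second condition to compare with. Peaks of B carry names that start with a word for oil, although its label says control and chow; the label was followed.

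Endothelins are short peptides cut from larger precursors, the last step being made by endothelin-converting enzyme, and angiotensin II is made from angiotensin I by angiotensin-converting enzyme. Both peptides act on G-protein-coupled receptors of contractile cells: the endothelin A receptor and the type 1 angiotensin receptor couple to phospholipase C and calcium release. In the liver, stellate cells lie around the sinusoids as pericytes, endothelin is a known contractile signal for them, and angiotensin II acting on the type 1 receptor is known to promote their activation in fibrosis. Mice have a pair of type 1 receptor genes, Agtr1a and Agtr1b.

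Each library came as a list of called peaks, 36577 entries in A and 28794 in B, with no read counts, so the depth is unknown. The fold enrichment of an entry is the authors' value, a linear ratio as the peak caller writes it, used here only to describe and rank entries. A replicated peak is an entry of A sharing 1 bp or more with an entry of B, and a locus is the gene body plus 20 kb on either side in mm10. A peak in a bulk library cannot tell a region open in few nuclei from one weakly open in many. Marker genes were chosen with earlier results of these data known, so their counts are no independent check of the cell type. All 12 stellate markers had a replicated peak in the locus and 11 had one at a start, against 64.6% and 41.4% of protein-coding genes. No start was open among the markers of 4 other liver cell types. Of these, 4 of 10 sinusoidal endothelial, 2 of 8 Kupffer and myeloid, 1 of 8 hepatocyte and 0 of 5 cholangiocyte genes had a replicated peak elsewhere in the locus. Among 5 vascular smooth muscle markers, 4 loci had a replicated peak and 1 start was open, that of Smtn, while Acta2 had none.

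Open chromatin was found at both endothelin receptor genes, at 1 of the 3 angiotensin receptor genes and at 1 of the 2 enzyme genes. Ednra, Ednrb, Agtr1a and Ece1 held all 21 replicated peaks of the 10 loci, and each of the 4 was open at its start or gene boundary. The 3 ligand genes, the angiotensin receptors Agtr1b and Agtr2, and Ace had none. Thus 4 of 10 genes had a replicated peak, against 64.6% of protein-coding genes, so the share with any peak is lower than that of genes at large. Within 500 bp of a start, or of either boundary where no start is annotated, as at Agtr1a, 4 of 10 had one. By the same measure 41.4% of protein-coding genes did, so this share is close to that of genes at large. The median was 0 replicated peaks per locus over the 10 genes and 1 over all protein-coding genes, while the means were 2.1 and 1.55. Of the 21 peaks, 17 lay in a gene body and 4 outside.

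**Figure D1:**
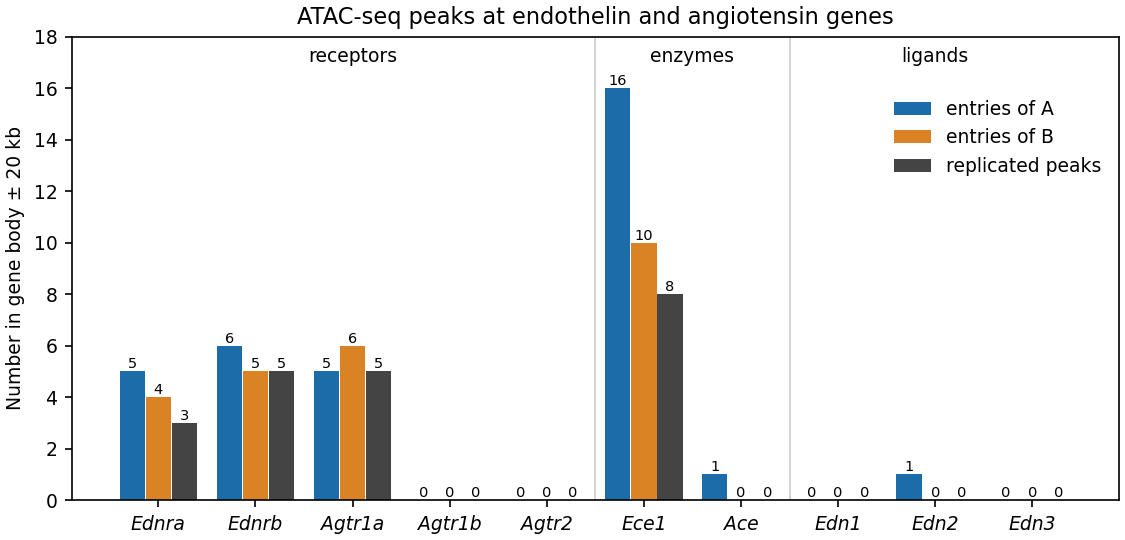
Number of peaks in the gene body and 20 kb on either side for each of the 10 genes, as entries of A, entries of B and replicated peaks, in the order receptors, enzymes, ligands. Ece1 leads with 8 replicated peaks, Ednrb and Agtr1a have 5 each and Ednra 3, and the other 6 genes have 0.

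Gene length bears on how many peaks a locus can hold. Of the 3 genes under 10 kb, Edn1, Edn2 and Agtr2, none had a replicated peak, against 48.2% of protein-coding genes of that length. Of the 4 between 10 and 50 kb, Ednrb and Agtr1a had one while Edn3 and Ace did not, against 73.2%. Of the 3 that are longer, Ednra and Ece1 had one while Agtr1b did not, against 75.2%.

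Ednra encodes the endothelin A receptor, the contractile receptor of vascular smooth muscle and pericytes. The gene lies on chromosome 8 from 77663029 to 77724452 on the minus strand, over 61.4 kb, and had 5 entries in A, 4 in B and 3 replicated peaks, all overlapping the gene. At least 3 replicated peaks were found at 22.7% of protein-coding loci. The peak at the start, chr8:77724265-77724563, had its summit 37 bp inside the gene in A and 73 bp inside it in B, and it also overlaps the lncRNA gene LOC108167319. Its fold enrichment was 11.3 in A and 7.95 in B, above the median of the list in A and below it in B, with a −log10 q of 22.2 in A and 12.3 in B. The best-ranked peak of the locus lay deeper in the gene, 28.7 kb from the start at chr8:77695645-77695942, with 15.6 in A and 9.65 in B. The other, 34.6 kb from the start at chr8:77689789-77689983, had 9.55 in A and 7.35 in B. All 3 were thus higher in A, by a ratio of 1.62 at the best-ranked one, where the median ratio of A to B over all replicated peaks was 1.11 and the central 95% ran from 0.643 to 1.95. A further pair of entries, chr8:77682208-77682381 in A and chr8:77681830-77681979 in B, came within 229 bp of each other without overlapping. The entry at chr8:77711821-77712077, with 10.4 in A, had no counterpart in B.

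Ednrb encodes the endothelin B receptor, which binds all 3 endothelins and is known for clearing endothelin and, on endothelium, for nitric oxide release. It lies on chromosome 14 from 103814615 to 103844508 on the minus strand, inside the span of the lncRNA gene Gm35197, and had 6 entries in A, 5 in B and 5 replicated peaks. At least 5 were found at 6.4% of protein-coding loci. A pair of peaks stood at the 5′ end. The one over the annotated start, chr14:103843624-103843893, was enriched 11.0-fold in A and 13.3-fold in B, with a −log10 q of 19.9 and 28.2. Its summit stood at -59 bp from the start in A and at -49 bp in B. The other, chr14:103844305-103844565, covered the outer boundary of the gene, with its summit in A at -751 bp from the start, and had 10.5 in A and 6.52 in B. It stood at percentile 55.2 of fold enrichment in A but 9.34 in B, so these neighbouring peaks were close in A and far apart in B.

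Inside Ednrb, a peak 11.1 kb from the start at chr14:103832567-103832778 had 7.69 in A and 9.98 in B, and one 26.6 kb from the start at chr14:103817025-103817219 had 9.15 in A and 8.51 in B. The best-ranked peak of the locus lay 17.6 kb past the 3′ end of the gene, at chr14:103796917-103797199. It had 13.4 in A and 16.2 in B, at percentiles 73.9 and 88.9 of the lists, and was the strongest of all 21 peaks in B. The nearest end of another protein-coding gene, Slain1, was 92.0 kb from it. In contrast to Ednra, 3 of the 5 peaks at Ednrb were higher in B.

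Agtr1a encodes the main type 1 angiotensin receptor of the mouse. It lies on chromosome 13 from 30336356 to 30382867 and had 5 entries in A, 6 in B and 5 replicated peaks, all inside or across the boundary of the gene; every entry of A in the locus was replicated. Its lower boundary carried the highest fold enrichment of the 21 peaks in A: chr13:30336231-30336510 had 18.4 in A and 14.2 in B, at percentiles 91.3 and 81.7 and with a −log10 q of 42.5 and 27.9. The middle of the gene held chr13:30368047-30368358, with 11.3 in A and 12.2 in B, and chr13:30359890-30360242, with 8.60 in A and 8.48 in B. The second of these was wider in B, at 523 bp against 353 bp in A. Near the higher boundary were 2 weaker neighbours: chr13:30379008-30379282 had 8.35 in A and 6.27 in B, and chr13:30379468-30379617 had 5.85 in A and 8.23 in B. Which of this pair was stronger changed between the libraries. The entry of B alone, chr13:30358516-30358673, was the weakest of the locus in B, with 5.63.

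The other angiotensin receptors were without peaks. Agtr1b, the second type 1 receptor gene, which in rodents is best known from the adrenal and pituitary, lies on chromosome 3 from 20314473 to 20367177. At 52.7 kb it is longer than Agtr1a, yet neither list had an entry in its locus. The nearest replicated peak was 257 kb away and overlaps Hltf. Agtr2, which encodes the type 2 receptor, lies on chromosome X from 21484624 to 21488833, likewise had no entry, and the nearest replicated peak was 157 kb away. No entry of either list was found in the loci of 4 of the 10 genes, Edn1, Edn3, Agtr1b and Agtr2, against 27.2% of protein-coding genes.

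**Figure D2:**
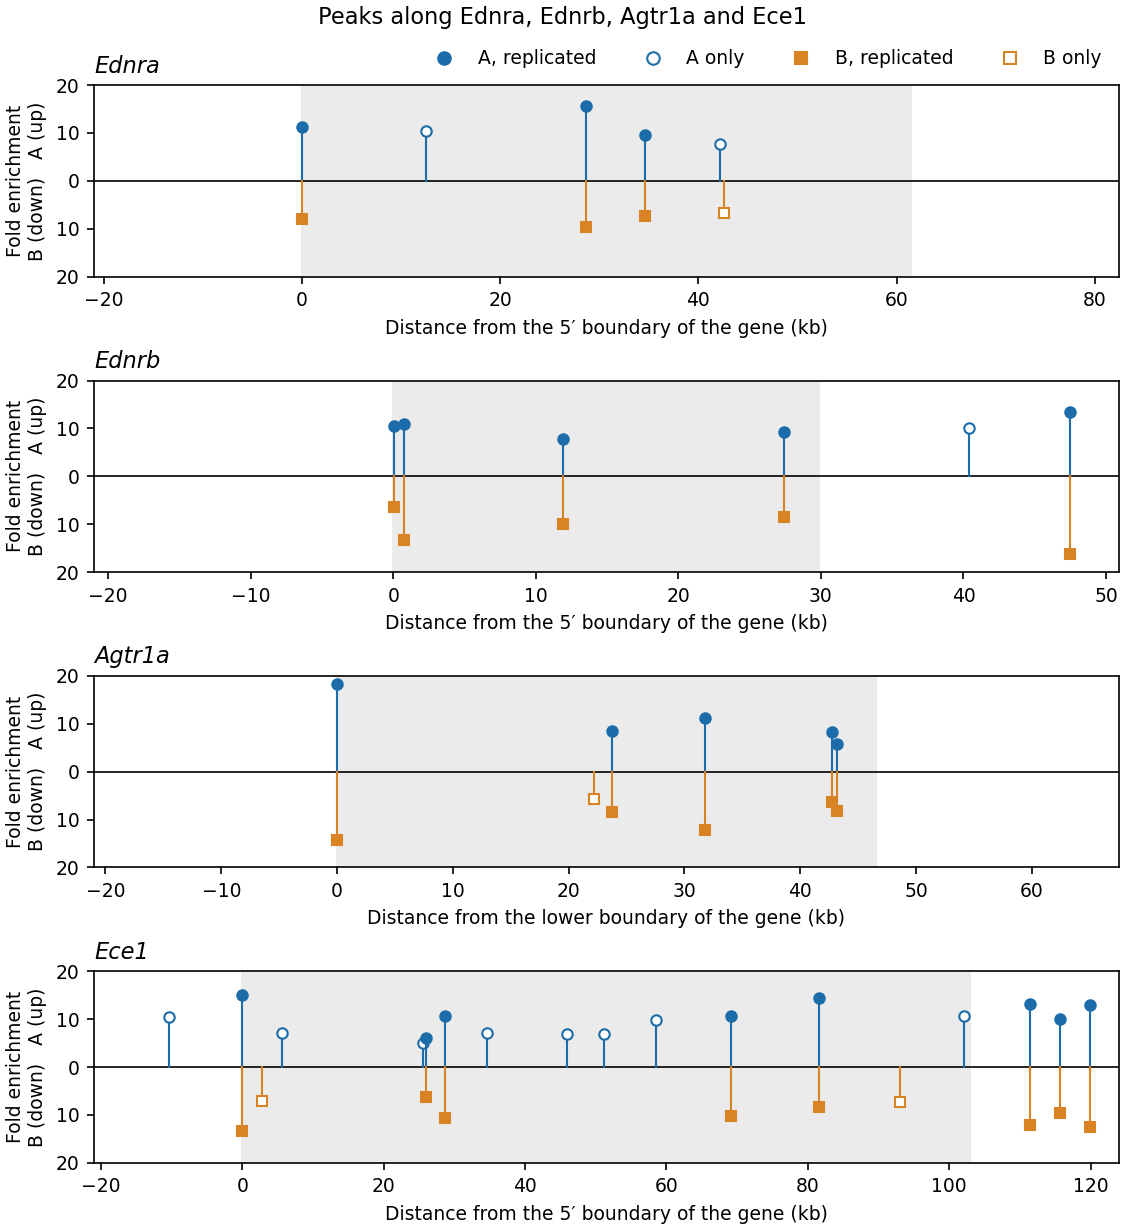
Peaks along Ednra, Ednrb, Agtr1a and Ece1, with distance from the 5′ boundary (for Agtr1a the lower boundary) in kb on the horizontal axis and the authors' fold enrichment on the vertical axis, A upward and B downward. Filled symbols are replicated peaks, drawn at the summit of A, open symbols are entries of 1 list, and the grey band is the gene body; each gene has a replicated peak at 0 kb.

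Ece1 encodes the membrane metalloprotease that releases endothelin from its precursor. It was the gene with the most peaks, 16 entries in A, 10 in B and 8 replicated over chromosome 4 from 137862237 to 137965229, plus strand, and its flanks. At least 8 were found at 1.22% of protein-coding loci, though at 103 kb the gene is also the longest of the 10. Per 100 kb of locus its 5.59 replicated peaks compare with 7.15 at Ednrb, 5.78 at Agtr1a and 2.96 at Ednra. Both its count and its density include 3 evenly spaced peaks past the 3′ end, described below. Without them Ece1 has 5 replicated peaks, a number reached or passed at 6.4% of protein-coding loci. The start peak, chr4:137862052-137862366, spanned the first and second annotated starts and had 15.1 in A and 13.3 in B, with a −log10 q of 39.8 and 28.2. Inside the gene, the peak 81.5 kb from the first start, chr4:137943640-137943907, had 14.4 in A but 8.43 in B, the highest ratio among the 21 peaks at 1.71. The peak 28.6 kb in, chr4:137890718-137890994, had 10.6 in both lists, and its weak neighbour at 25.9 kb, chr4:137888089-137888290, had 6.11 in A and 6.29 in B. The peak 69.1 kb in, chr4:137931042-137931856, was 815 bp wide in A and 662 bp in B, wider than 99.9% and 99.6% of the entries, at a moderate enrichment, 10.7-fold in A and 10.3-fold in B.

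Ece1 has 4 annotated starts, known to give rise to isoforms differing at their N terminus. The inner starts were covered in A alone. The entry chr4:137913342-137913607 lay across the third start with a fold enrichment of 6.88, and chr4:137920547-137920824 lay across the fourth with 9.84, at percentiles 12.4 and 48.9 of the list. No entry of B was nearer than 17.6 kb to the first of these or 10.4 kb to the second. Of the 16 entries of A at Ece1, 8 were in A alone, and 2 of the 10 entries of B were in B alone. Over all 10 loci, 13 entries were in A alone, with fold enrichments of 5.04 to 10.7, and 4 in B alone, with 5.63 to 7.19. The share of entries of A that was replicated, 61.8% of 34, was near the 64.1% of the whole list, as was the 84.0% of 25 entries of B that overlapped A, against 81.7%.

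Beyond the 3′ end of Ece1 stood 3 evenly spaced peaks, described here after their values were seen. They lay 8.45, 12.7 and 16.9 kb past the gene, before the neighbouring Eif4g3. The first, chr4:137973495-137973820, was enriched 13.25-fold in A and 12.1-fold in B, the middle one, chr4:137977745-137978045, had 10.1 and 9.57, and the last, chr4:137981955-137982280, had 13.0 and 12.5. The first and last were 8460 bp apart in A and 8460 bp apart in B, both 326 bp wide in A and both 269 bp wide in B. Among 12553 pairs of replicated peaks with starts within 20 kb, 5 pairs matched in width in each list and in spacing between lists in this way. The sequence under these peaks was not read and the sources used here do not give the handling of reads that map to several places, and their part in the count at Ece1 was not tested; without them Ece1 has 5 replicated peaks and the 10 loci have 18.

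**Figure D3:**
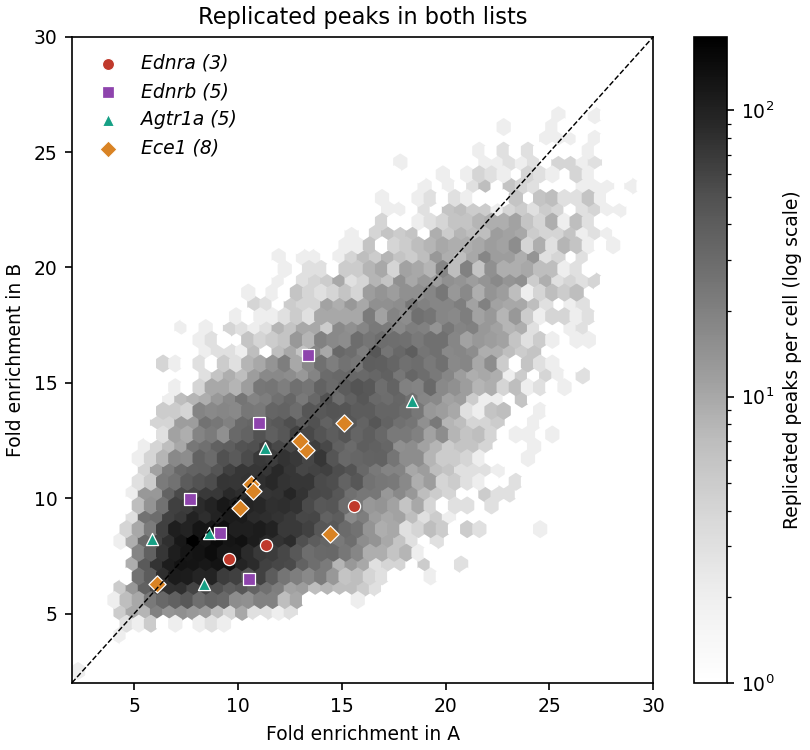
Fold enrichment in B against fold enrichment in A for all replicated peaks (grey cells, darker for more peaks) and for the 21 at Ednra, Ednrb, Agtr1a and Ece1 (coloured symbols); the dashed line marks equal values. The coloured symbols lie within the grey cloud, the 3 of Ednra all below the line.

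Among replicated peaks, those of the 4 genes were ordinary in strength. Their fold enrichment ran between 5.85 and 18.4 in A with a median of 10.7, and between 6.27 and 16.2 in B with a median of 9.65. The medians over all replicated peaks were 11.9 in A and 10.4 in B. Of the 21 peaks, 11 (52.4%) stood above the median of both lists, against 49.4% of all replicated peaks. The ratio of A to B had a median of 1.06, between 0.712 and 1.71, and all 21 ratios lay within the central 95% of the ratios of all replicated peaks.

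The ligand genes were without replicated peaks. Edn1, which encodes endothelin-1, the form made by endothelial cells and by activated stellate cells, lies on chromosome 13 from 42301476 to 42307990 and had no entry in either list. Its nearest replicated peak was 42.7 kb below the gene, at chr13:42258437-42258806, with 12.8 in A and 9.20 in B, and no other protein-coding gene lay closer to that peak. Edn3, on chromosome 2 from 174760619 to 174784042, had no entry either, and its nearest replicated peak was 181 kb away. At Edn2, on chromosome 4 from 120161206 to 120167360, A had 1 entry with a fold enrichment of 10.3 at 2.29 kb before the start. That entry overlaps the lncRNA gene Gm36134, and B had no entry in the locus. Edn2 lay 116 kb from its nearest replicated peak, which overlaps Foxo6.

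Ace, on chromosome 11 from 105967948 to 105989964, encodes the enzyme that makes angiotensin II, known above all from endothelium. Its locus held a single entry of A, chr11:105959437-105959663, with a fold enrichment of 8.73 at 8.43 kb before the start. B had no entry there. The nearest replicated peak was 42.2 kb away, overlaps Kcnh6 and was enriched 11.3-fold in A and 12.4-fold in B. Of the 10 endothelial markers, 4 had a replicated peak in the locus and none at a start, and the part of other cells in the peaks at these loci was not tested.

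Promoter sequences from RefSeq (GRCm38.p6, the assembly of mm10) were matched for 9 of the 10 genes, Agtr1a being the other. Those of the endothelin receptor genes and of Ece1, open at the start, are printed beside those of Edn1, Ace and Agtr1b, which had no peak, to set starts with and without a peak side by side. Each is the 250 bases before the first annotated start, 5′ to 3′ on the gene's strand. Capitals mark matches to any of 11 motifs searched on both strands of the window that runs 50 bases past the start: TGANTCA for AP-1 factors, the CArG box by its name alone, GATAA for the zinc finger factors named after that motif, CCGGAA for ETS factors, TTGGC for nuclear factor I, GGAATG for TEAD factors, ACGTG as the core of the hypoxia response element, AGGTCA for nuclear receptors, TATAAA as the TATA box, GGGCGG as the GC box, and CCAAT. The motif TTGGC and the reverse complement of CCAAT can share bases.
Ednra, chr8:77724453-77724702, minus strand: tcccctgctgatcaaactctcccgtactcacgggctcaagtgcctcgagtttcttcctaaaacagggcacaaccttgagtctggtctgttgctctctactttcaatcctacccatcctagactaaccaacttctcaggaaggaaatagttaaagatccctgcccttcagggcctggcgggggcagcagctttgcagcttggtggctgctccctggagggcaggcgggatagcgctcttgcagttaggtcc
Ednrb, chr14:103843702-103843951, minus strand: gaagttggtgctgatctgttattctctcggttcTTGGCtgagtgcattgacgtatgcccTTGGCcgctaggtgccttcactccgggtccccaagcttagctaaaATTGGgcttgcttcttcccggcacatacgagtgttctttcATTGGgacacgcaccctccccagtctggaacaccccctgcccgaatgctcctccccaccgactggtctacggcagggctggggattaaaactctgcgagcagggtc
Ece1, chr4:137861987-137862236, plus strand: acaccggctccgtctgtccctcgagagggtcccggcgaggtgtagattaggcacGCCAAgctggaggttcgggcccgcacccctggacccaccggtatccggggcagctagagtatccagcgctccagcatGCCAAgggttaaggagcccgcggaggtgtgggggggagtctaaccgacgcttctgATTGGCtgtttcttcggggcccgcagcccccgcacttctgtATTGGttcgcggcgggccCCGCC
Edn1, chr13:42301226-42301475, plus strand: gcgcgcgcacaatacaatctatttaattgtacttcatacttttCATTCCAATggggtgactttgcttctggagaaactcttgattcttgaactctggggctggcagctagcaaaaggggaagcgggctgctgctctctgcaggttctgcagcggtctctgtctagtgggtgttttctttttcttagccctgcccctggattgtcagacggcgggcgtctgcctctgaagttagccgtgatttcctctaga
Ace, chr11:105967698-105967947, plus strand: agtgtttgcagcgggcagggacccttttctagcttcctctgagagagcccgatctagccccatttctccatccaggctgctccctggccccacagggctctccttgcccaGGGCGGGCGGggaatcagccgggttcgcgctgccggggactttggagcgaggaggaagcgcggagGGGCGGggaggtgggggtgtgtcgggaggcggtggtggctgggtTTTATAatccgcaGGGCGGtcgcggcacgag
Agtr1b, chr3:20367178-20367427, minus strand: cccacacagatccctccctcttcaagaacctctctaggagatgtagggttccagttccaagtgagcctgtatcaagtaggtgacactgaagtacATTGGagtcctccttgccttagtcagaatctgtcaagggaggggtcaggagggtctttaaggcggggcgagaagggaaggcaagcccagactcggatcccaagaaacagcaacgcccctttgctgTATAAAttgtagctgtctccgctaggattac

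The start peak covered 111 of the 250 bases of Ednra in A and 54 in B, 192 and 223 of those of Ednrb, and 185 and 150 of those of Ece1. These promoters differed in CpG content, given as the observed number of CpG over that expected from the C and G content of the 300-base window. Ece1 had a ratio of 0.777 at 69.3% GC, Ednrb 0.582 at 58.7% and Ednra 0.357 at 54.7%. Over 21263 promoters of protein-coding genes, a replicated peak overlapped 4.39% of those in the lowest tertile of this ratio, 39.6% in the middle one and 68.1% in the highest. Ednra, at percentile 36.4, stood near the lower edge of the middle tertile, and in the bin of ratios between 0.3 and 0.4 that holds it 13.1% of promoters were open. Ace was without an entry of either list at a first promoter of 69.7% GC and a ratio of 0.820, in the highest tertile. Edn1, at 0.557, was close to Ednrb in CpG content and had no peak, so the ratios of starts with and without a peak overlapped.

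**Figure D4:**
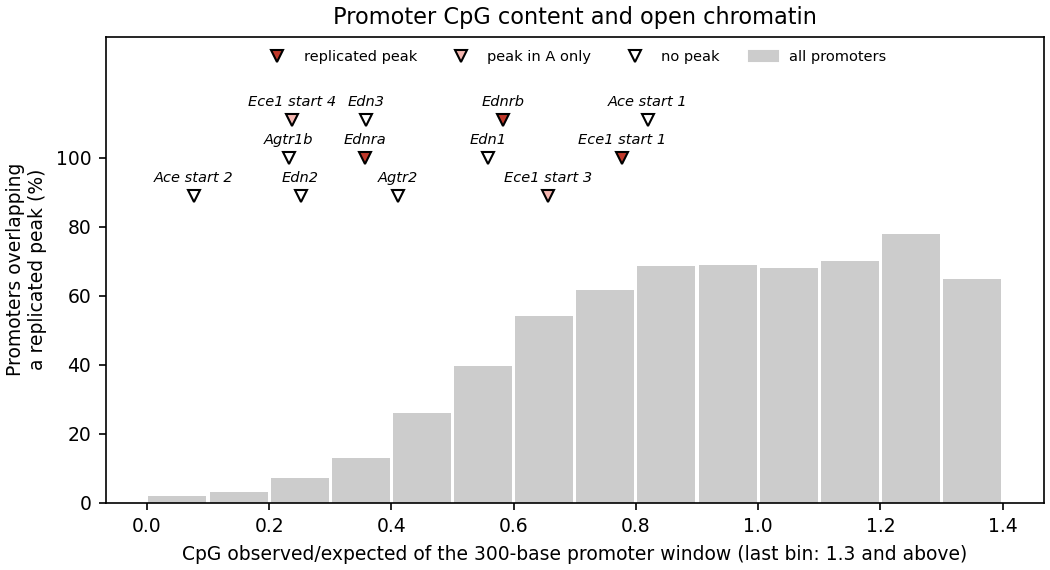
Share of promoters of protein-coding genes that overlap a replicated peak (grey bars, in %) by the observed over expected CpG ratio of the 300-base window; triangles place the promoters of 9 genes at their ratio, their height having no meaning, filled where a replicated peak overlaps and pale where an entry of A alone does. Ednra is open at 0.357 and Ace start 1 is without a peak at 0.820; the second start of Ece1, close to the first, is left out.

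The 6 windows held between 0 motif matches, at Ednra, and 7, at the first start of Ece1. The Ednra window held none of the 11 motifs, and neither did those of Edn2 and Edn3, not printed, which had no peak at the start. The Ednrb window held 2 nuclear factor I motifs, at -217 and -191 from the start, and 2 CCAAT boxes. The first Ece1 window held 3 nuclear factor I motifs, 2 CCAAT boxes, of which 1 shares bases with a nuclear factor I motif, and 2 GC boxes. These motifs are common: 47.9% of the promoters hold the nuclear factor I motif, 38.2% CCAAT and 46.2% the GC box. Among promoters with a replicated peak these shares were 53.6%, 43.7% and 72.4%. Among the genes without a peak at the start, Ace had 4 GC boxes, 2 of which overlap each other, and a TATA box on the opposite strand, and Agtr1b had a TATA box at -31 from its start, a motif in 12.6% of all promoters and 5.02% of those with a replicated peak. Edn1 had a TEAD and a CCAAT match upstream, sharing bases, and a GATA and a hypoxia response match past its start. Of all promoters, 13.6%, 22.5% and 20.9% hold the TEAD, GATA and hypoxia response motifs, and of those with a replicated peak 10.8%, 13.6% and 28.5%. No match to the AP-1, CArG, ETS or nuclear receptor motif was found in the 6 windows, where 6.99%, 1.52%, 18.7% and 14.7% of all promoters hold one. A match describes letters only.

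The pathway beyond the 10 genes was read through 43 further genes, all matched by symbol. At least 1 replicated peak was found at 32 of the 43, or 74.4%, against 64.6% of protein-coding genes, and 26, or 60.5%, were open at a start, against 41.4%. All 5 G-protein alpha subunit genes, all 7 genes of phospholipase C, calcium release and protein kinase C, and all 6 of desensitisation had a replicated peak in the locus. Open at a start were 5 of 5, 5 of 7 and 5 of 6 of these. Gene length was not matched here, and 75.2% of protein-coding genes of 50 kb or more had a replicated peak in the locus. In contrast, 5 of 13 genes of angiotensin peptides, enzymes and receptors and 2 of 4 genes of endothelin processing had a replicated peak in the locus. In aldosterone action, Nr3c2, the mineralocorticoid receptor gene, had 2 replicated peaks and the aldosterone synthase gene Cyp11b2 had none.

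Itpr1, which encodes an inositol trisphosphate receptor that releases calcium, led with 14 replicated peaks, 12 of them in its 338 kb body. Its best-ranked peak was enriched 17.2-fold in A and 18.8-fold in B. Plcb3, a phospholipase C gene, and Arrb1, which encodes the beta-arrestin that ends receptor signalling, had 7 each, of which 1 and 5 lay in the gene body. Gna13, a G-protein alpha subunit gene, had 6. Gna12, Itpr2 and the regulator of G-protein signalling Rgs5, a pericyte marker that also stands among the stellate markers above, had 4 each. Of the genes with none, the longest were the peptidase genes Mme, Enpep, Anpep, Kel and Ecel1 and the receptor gene Mas1. Mme, which encodes neprilysin, had no entry in either list over a body of 88.5 kb. Named after their values were seen, Agt and Ren1, which encode angiotensinogen and renin, had 1 entry each in A, none in B and no replicated peak. Agtrap, whose product binds the type 1 receptor, was also named after its values were seen. It had 4 replicated peaks, of which 1 lay in the gene, its start was not open and its best-ranked peak lay outside the gene.

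**Figure D5:**
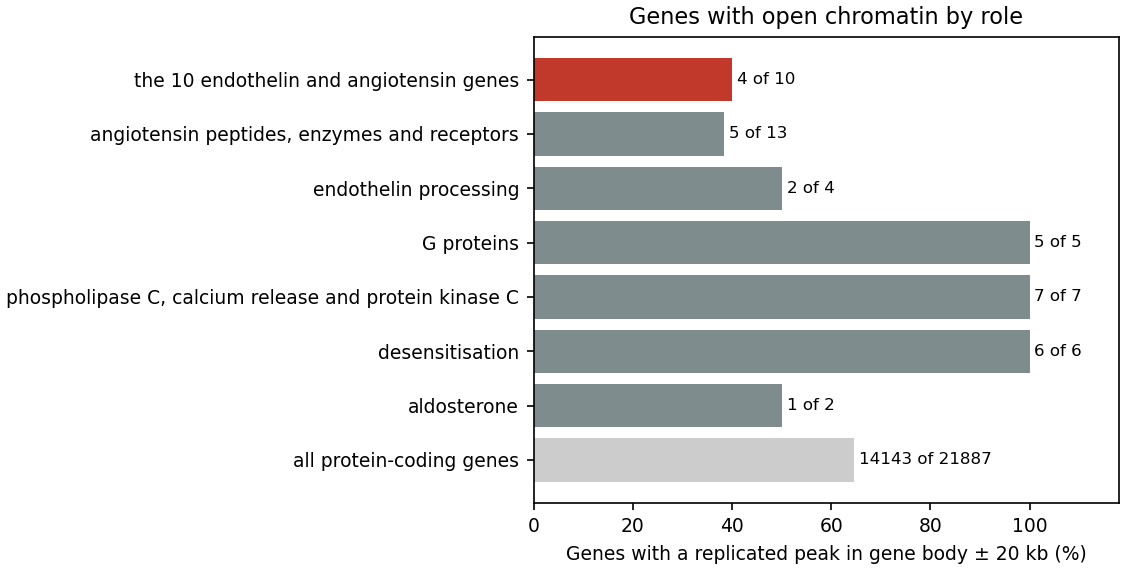
Share of genes with a replicated peak in the gene body and 20 kb on either side, in %, for the 10 endothelin and angiotensin genes, for other genes of both pathways by role, and for all protein-coding genes, with counts at the bars. Receptor effectors stand at 100%, while the 10 genes stand at 40% and the further angiotensin peptide, enzyme and receptor genes at 38.5%, below the 64.6% of all genes.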

How the data were processed

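ATAC-seq was measured in sorted stellate cell nuclei, 2 samples of 1 group. Nuclei were freed by douncing, cleaned on a density gradient and sorted, and libraries were made with Tn5, per the labels' protocols. MACS2, HOMER, bedtools, Picard, SAMtools and STAR 2.7.0, in roles that were not specified, as well as genome build mm10, are listed per the submitters' processing notes. For Tn5 offset correction, peak thresholds and cleaning of the lists, the settings are not given in the sources used here. Per library, the authors deposited 1 peak list, with a fold enrichment (a linear ratio), −log10 p, −log10 q and a score per peak. The deposited score is the −log10 q times 10, cut to a whole number, for 99.9% of entries of A.

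Overlaps of at least 1 bp and counts per locus were computed with Python 3.11.15, numpy 2.4.6 and pandas 2.3.3, and checked on simulated intervals; figures used matplotlib 3.10.9. Gene spans and starts came from RefSeq tables of GRCm38.p6, with coordinates 1-based. Starts were annotated for 17492 of 21887 protein-coding genes; for the other 4395, Agtr1a included, both gene boundaries were used. Exons and introns are not separated. A start counted as open with a replicated peak within 500 bp. Percentiles are within a list. With 1 group and no read counts there is no test, and no p-value is given. The 10 genes and all lists were chosen with earlier results of these data known. Peaks named are, per locus, the one nearest the start, the best by mean rank of fold enrichment and those in the body; of other pathway genes, the 8 with most replicated peaks and the 6 longest with none; 1 group of the 43 is counted in the total but not reported here. Alternatives were each library alone, a 50% reciprocal overlap, stricter thresholds, flanks of 10 and 50 kb, coordinates of B, the nearest gene, and a start window of 2500 bp.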

Additional observations from a re-analysis of the deposited data

How the results depend on the processing

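Ednra, Ednrb, Ece1 and Agtr1a were the genes with a peak under reciprocal overlap, flanks of 10 kb, coordinates of B and the nearest gene body. With each library alone, the genes with a peak numbered 4 in B and 6 in A, which adds Edn2 and Ace; the peaks in the 10 loci numbered 25 and 34, and those in gene bodies 21 and 26. With flanks of 50 kb there were 34 peaks at 6 genes, adding Edn1 and Ace. With entries above the median −log10 q of their list, 11 peaks were left in the loci and 7 in gene bodies, none at Ednra. With the 10000 strongest entries of each list, 6 peaks were left in the loci, at Ece1 and Agtr1a, 3 of them in gene bodies. Then 2 genes had a peak in the locus, 2 had one at a start or gene boundary, and 20 of the 43 other pathway genes had a peak in the locus. Of the other 33 recomputed summary counts, each was within 1.5 times the reported one. Leaving out the 3 evenly spaced peaks beyond Ece1 and using either boundary of every gene were chosen after seeing the data, and gave 18 peaks and 4 genes. No paired analysis was possible because there is 1 group. Depth is unknown, so a locus without an entry is not thereby shown to be closed.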
